A study of Mus musculus with 23 samples.

Results

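Hedgehog signalling genes were followed in adult mouse sciatic nerves (SNs) after crush injury and after loss of Dicer or Dgcr8, proteins of microRNA biogenesis. The 9 genes were chosen by symbol, and their values set no threshold for the choice, although earlier results of these data were known when it was made. They are the ligands Shh, Dhh and Ihh, the receptor Ptch1, the signal transducer Smo, the ligand-binding inhibitor Hhip, and the transcription factors Gli1, Gli2 and Gli3. They are 9 of 43068 genes listed in the crush libraries and of 22880 genes listed in the libraries of the induced mutants.

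The crush experiment comprised wild-type male C57bl6 mice aged 2 months. Total RNA was sequenced from distal stumps at 3 days post crush (3 dpc, n = 4), from contralateral, uninjured nerves of mice with a crush (n = 4), and from nerves of the uncrushed surgery control (n = 3). The second experiment comprised 4 groups of 3 mice, also C57bl6 by their labels, at 3 months post tamoxifen (mpT). Dicer iKO mice carried a tamoxifen-inducible CreERT2 transgene (-/+) on Dicer1 flox/flox, Dgcr8 iKO mice carried the same transgene (-/+) on Dgcr8 flox/flox, and each control group had the same floxed alleles without Cre (-/-). All 4 groups received tamoxifen at 8 to 10 weeks of age. The promoter of the transgene directs deletion to Schwann cells (SCs), so that other nerve cells keep both proteins. The study limited its work to mutant animals that were affected, since others of these lines had no change in morphology.

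Hedgehog ligands are secreted proteins that bind Ptch1 and thereby release Smo from inhibition, after which Gli proteins act on target genes in the nucleus. Gli1 and Ptch1 are themselves transcribed in response to the pathway in many tissues and are commonly used as its readout. Dhh is the ligand made by SCs of the intact nerve and is needed for the perineurial sheath, while Shh is a described marker of the repair SC that forms after injury.

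The ligand transcripts share short identical runs of bases, which bears on how reads are assigned to each ligand. The lines below give exon sequence of GENCODE M21 (GRCm38) around the longest run of bases shared by the Shh and Dhh transcripts, with that run in capitals. The Shh stretch is chr5:28461322-28461436 and the Dhh stretch is chr15:98894813-98894927, both on the minus strand and both at bases 451 to 565 of the coding sequence.
Shh: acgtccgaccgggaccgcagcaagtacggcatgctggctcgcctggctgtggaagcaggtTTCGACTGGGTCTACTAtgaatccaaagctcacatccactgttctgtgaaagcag
Dhh: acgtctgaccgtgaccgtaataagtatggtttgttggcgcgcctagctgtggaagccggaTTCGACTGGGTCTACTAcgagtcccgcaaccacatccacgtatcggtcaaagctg
Over these 115 bases 88 were identical (76.5%), and the longest shared run was 17 bases, which is shorter than a sequencing read. The longest run shared by Shh and Ihh was also 17 bases, and that shared by Dhh and Ihh was 16.

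Depth was 6617716 to 12806066 total counts per library in the crush experiment and 5594859 to 10143244 in the mutants. Counts of 3, taken as the detection limit, corresponded to 0.234 to 0.453 CPM (counts scaled to library size) and 0.296 to 0.536 CPM, respectively, which covers counting error only. CPM values were normalized by TMM within each experiment, and levels were not compared between experiments, which used different library kits. The SC markers Mbp and Prx, with 7 others of the myelinating SC, had at least 3 counts in every library. Neither targeted gene was called different in its own mutant. Dicer1 was at 81.3 to 82.1 CPM in Dicer iKO and 87.4 to 90.5 CPM in its controls (adjusted p = 0.357, edgeR), and Dgcr8 at 39.4 to 54.0 CPM against 35.4 to 41.8 CPM in the Dgcr8 experiment (adjusted p = 0.233). These counts run over the whole gene in whole nerve, so they are a weak check of a deletion of part of a gene in SCs. In whole nerve, fewer cells of a type and less RNA per cell cannot be told apart, which applies to each difference given here.

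At 3 dpc the more abundant ligand transcript of the nerve changed from Dhh to Shh. Shh (chr5:28456815-28467256) had 5818, 4129, 3933 and 3249 counts in the 4 crushed nerves, 29, 11 and 15 in the uncrushed nerves, and 22, 28, 30 and 28 in the contralateral nerves. The lowest crushed nerve was thus far above the highest uninjured nerve, and the groups did not overlap. In normalized level, Shh was at 368 ± 69.9 CPM (SD, n = 4) in crushed, 2.18 ± 0.697 CPM (n = 3) in uncrushed and 2.54 ± 0.470 CPM (n = 4) in contralateral nerves. The fold change was 178-fold over uncrushed nerves (log2 fold change 7.48 ± 0.24 SE, edgeR's quasi-likelihood test, Benjamini-Hochberg adjusted p = 2.3e-10) and 147-fold over contralateral nerves (log2 fold change 7.20 ± 0.17, adjusted p = 4.25e-13). The summed level of 9 markers of the immature or repair SC moved with Shh, from 296 to 317 CPM in uncrushed and 311 to 407 CPM in contralateral to 1342 to 1867 CPM in crushed nerves. So did the sums of 8 macrophage markers, at 156 to 179.8, 110 to 213 and 718 to 1649 CPM, and of 7 endoneurial fibroblast markers, at 1649 to 2321, 1462 to 2159 and 2796 to 4784 CPM in the same order of groups. Of these 7 genes, 3 were called higher and 1 lower against uncrushed nerves, beside 33.8% and 33.4% of all genes. The sum of 6 general fibroblast markers went the other way, at 4326 to 5172, 3713 to 4979 and 2789 to 3432 CPM in that order. Of these 6 genes, 1 was called higher and 3 lower against uncrushed nerves. The part of these shifts in the higher level of Shh was not tested.

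Dhh (chr15:98891152-98898540) moved the other way. It was at 48.9, 37.0, 41.1 and 34.3 CPM in the crushed nerves, 126, 126 and 107 CPM in the uncrushed nerves, and 141, 168, 142 and 127 CPM in the contralateral nerves. All 4 crushed nerves lay below all 7 others. Dhh was 2.77-fold lower than in uncrushed nerves (log2 fold change -1.47 ± 0.13, adjusted p = 8.46e-07) and 3.56-fold lower than in contralateral nerves (-1.83 ± 0.12, adjusted p = 6.71e-09). Ihh, the ligand best known from cartilage, stayed at 1 to 7 counts per library around the detection limit and did not enter the tests. Markers of the myelinating SC moved with Dhh: the summed level of 9 markers was 25336 to 27965 CPM in uncrushed, 27309 to 33588 CPM in contralateral and 1698 to 2458 CPM in crushed nerves. The summed level of 8 perineurial markers was lower as well, at 408 to 446 CPM, 429 to 526 CPM and 171 to 194 CPM in the same order. Of 6 perineurial markers tested against uncrushed nerves, 3 were called lower and 1 higher, beside 33.4% and 33.8% of all genes. The part of these shifts in the levels of Dhh and of the other members at 3 dpc was not tested.

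**Figure D1:**
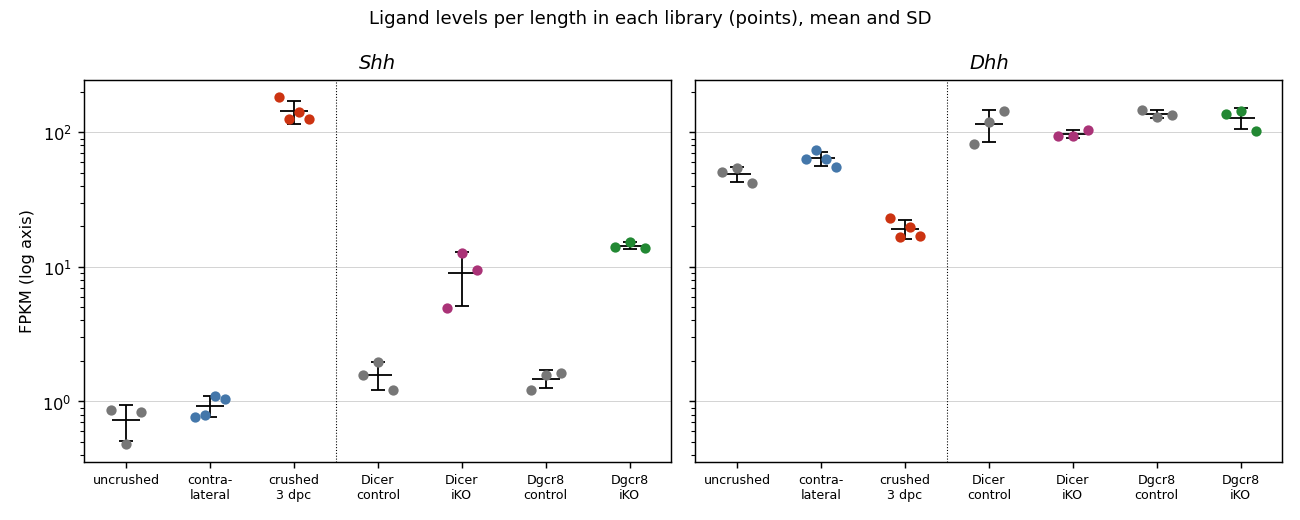
FPKM of Shh (left) and Dhh (right) in each library (points) on a shared log axis, with the mean and SD of each group. Dotted lines part the crush experiment from the mutants. Shh sits between 125 and 183 FPKM in crushed nerves, above Dhh in the same nerves, and below Dhh in all other groups.

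FPKM, which the authors scaled to transcript length, allows the ligands to be compared with each other within a library. In uncrushed and contralateral nerves, Shh was at 0.48 to 1.10 FPKM and Dhh at 42.2 to 74.5 FPKM. In crushed nerves the order was inverted, with Shh at 125 to 183 FPKM and Dhh at 16.7 to 23.3 FPKM. The 3 ligands together rose from 43.1 to 54.9 FPKM in uncrushed nerves to 142 to 207 FPKM in crushed nerves. Shh made up 88.1% ± 0.427 (SD, n = 4) of this ligand sum in crushed nerves, 1.49% ± 0.549 (n = 3) in uncrushed nerves and 1.45% ± 0.378 (n = 4) in contralateral nerves.

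The balance of both ligands was also tested as 1 value per library, the log2 ratio of Shh to Dhh TPM after adding 0.1 to each. The ratio was 2.86 ± 0.05 in crushed, -4.84 ± 0.56 in uncrushed and -5.33 ± 0.33 in contralateral nerves. The 4 crushed nerves ranged only from 2.82 to 2.94, although their Shh counts differed up to 5818 against 3249. Crushed nerves differed by 7.70 from uncrushed nerves (two-sided exact permutation test, p = 0.0286) and by 8.19 from contralateral nerves (p = 0.0286), the smallest p that either design can give. The size of the difference depended on the pseudocount, because Shh was low in the uninjured nerves: against uncrushed nerves it was 4.99 with 1 TPM added and 8.79 with 0.01 TPM added. From expected counts the difference to uncrushed nerves was 8.97, and from FPKM 8.82.

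**Figure D2:**
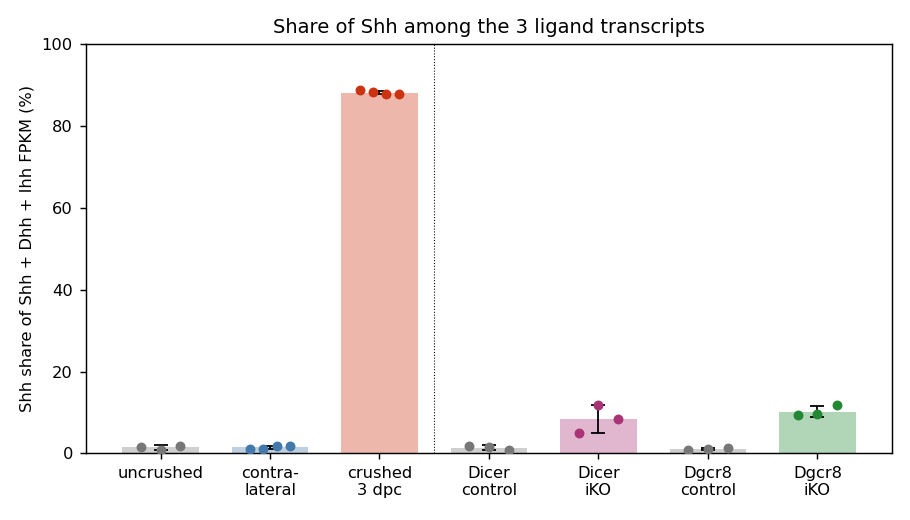
Share of Shh in the summed FPKM of Shh, Dhh and Ihh, in percent, for each library (points), with the group mean (bars) and SD. Crushed nerves lie at 87.7 to 88.7%, the induced mutants at 5.01 to 11.8% and all control nerves at 0.823 to 1.92%.

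The receptors and effectors did not follow Shh in size. Of the 9 genes 8 were tested against uncrushed nerves, and 3 were called higher (Shh, Ptch1 and Gli3) and 3 lower (Dhh, Smo and Gli2) at an adjusted p of at most 0.05. Among all 17433 genes tested, 33.8% were called higher and 33.4% lower, so that this count of members is close to that of genes at large. With a fold change of at least 2 in addition, Shh alone was higher and Dhh alone was lower, against 15.3% and 21.1% of all genes. On the log2 scale the 8 members had a median of -0.29, and all genes one of -0.03. With limma on log2(TPM + 0.1), a scale on which the median of all genes lay 0.77 higher, the calls of Dhh (-0.62, adjusted p = 0.0951) and Gli2 (-0.43, adjusted p = 0.251) were lost and that of Smo turned (0.29, adjusted p = 0.412). Against contralateral nerves, 7 were tested, 2 were higher (Shh and Ptch1) and 3 lower (Dhh, Smo and Gli2), with 33.5% of all genes higher and 32.9% lower. At 2-fold, Shh was again the member called higher and Dhh the member called lower, against 14.6% and 13.6% of all genes. Both comparisons share the crushed nerves and are not independent of each other.

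Ptch1 (chr13:63508328-63573598), which binds all 3 ligands, was at 74.9, 105, 106 and 97.4 CPM in crushed, 58.1, 52.3 and 55.0 CPM in uncrushed and 75.6, 57.9, 58.9 and 51.6 CPM in contralateral nerves. Crushed nerves lay above all uncrushed nerves, while the lowest crushed nerve (replicate 1) fell just below the highest contralateral nerve (replicate 1). The rise was 1.86-fold over uncrushed (log2 fold change 0.90 ± 0.12, adjusted p = 4.37e-05) and 1.59-fold over contralateral nerves (0.67 ± 0.12, adjusted p = 0.000276). Replicate 1 was also the crushed nerve with the highest Shh level. It had the lowest summed markers of macrophages (718 CPM, others 1311 to 1649 CPM) and of endoneurial fibroblasts (2796 CPM, others 4077 to 4784 CPM) among crushed nerves. General fibroblast markers were lowest in it too (2789 CPM, others 3260 to 3432 CPM). The part of these cells in its Ptch1 level was not tested.

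Smo (chr6:29735503-29761365), the transducer held back by Ptch1, was lower at 3 dpc. Its level was 45.7, 44.6, 53.5 and 45.5 CPM in crushed, 78.6, 73.0 and 67.5 CPM in uncrushed and 79.4, 90.2, 79.3 and 74.1 CPM in contralateral nerves. No crushed nerve reached the others. The difference was 1.44-fold against uncrushed (log2 fold change -0.53 ± 0.10, adjusted p = 0.00064) and 1.69-fold against contralateral nerves (-0.76 ± 0.09, adjusted p = 4.14e-06). Without the filter on low counts, which shifted the median of all genes by 0.23 on the log2 scale, the difference to the uncrushed group was -0.30 (adjusted p = 0.0753).

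The Gli factors went in different directions. Gli1 (chr10:127329882-127341974), the factor that acts only as an activator, was not called. It was at 10.1, 9.94, 10.8 and 11.03 CPM in crushed nerves, 15.1, 11.1 and 9.54 CPM in uncrushed nerves and 12.2, 9.03, 10.03 and 8.92 CPM in contralateral nerves. The groups overlapped, and the log2 fold change was -0.12 (95% interval -0.44 to 0.21 from the SE, adjusted p = 0.551) against uncrushed and 0.08 (-0.17 to 0.32, adjusted p = 0.599) against contralateral nerves. The interval reaches no 2-fold change in either direction, though its sign against uncrushed nerves turned without the filter on low counts (0.11) and without uncrushed replicate 1 (0.16).

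Gli2 (chr1:118834132-119053619), which serves chiefly as an activator, was at 3.69, 4.15, 4.22 and 3.86 CPM in crushed nerves, below all of the 5.93, 7.88 and 12.3 CPM of uncrushed nerves and the 8.21, 6.44, 5.72 and 6.05 CPM of contralateral nerves. It was 1.97-fold lower than in uncrushed (log2 fold change -0.98 ± 0.22, adjusted p = 0.0021) and 1.64-fold lower than in contralateral nerves (-0.72 ± 0.16, adjusted p = 0.00112). Gli3 (chr13:15463235-15730026), known mostly for its repressor form, was 8.59 to 11.2 CPM in crushed, 7.50 to 8.35 CPM in uncrushed and 6.68 to 8.87 CPM in contralateral nerves. Its call against uncrushed nerves (log2 fold change 0.38 ± 0.14, adjusted p = 0.0363) was lost without crushed replicates 2, 3 or 4 or uncrushed replicates 1 or 2 (adjusted p = 0.0525 to 0.131), with DESeq2 (0.109), with all groups in 1 fit (0.115) and over the genes listed in both experiments (0.106). Against contralateral nerves it was not called (0.24 ± 0.13, adjusted p = 0.113). Hhip (chr8:79965851-80058006) had 3 to 12 counts per library and was not called where it was tested (log2 fold change -0.47 ± 0.40 against uncrushed nerves, adjusted p = 0.317).

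**Figure D3:**
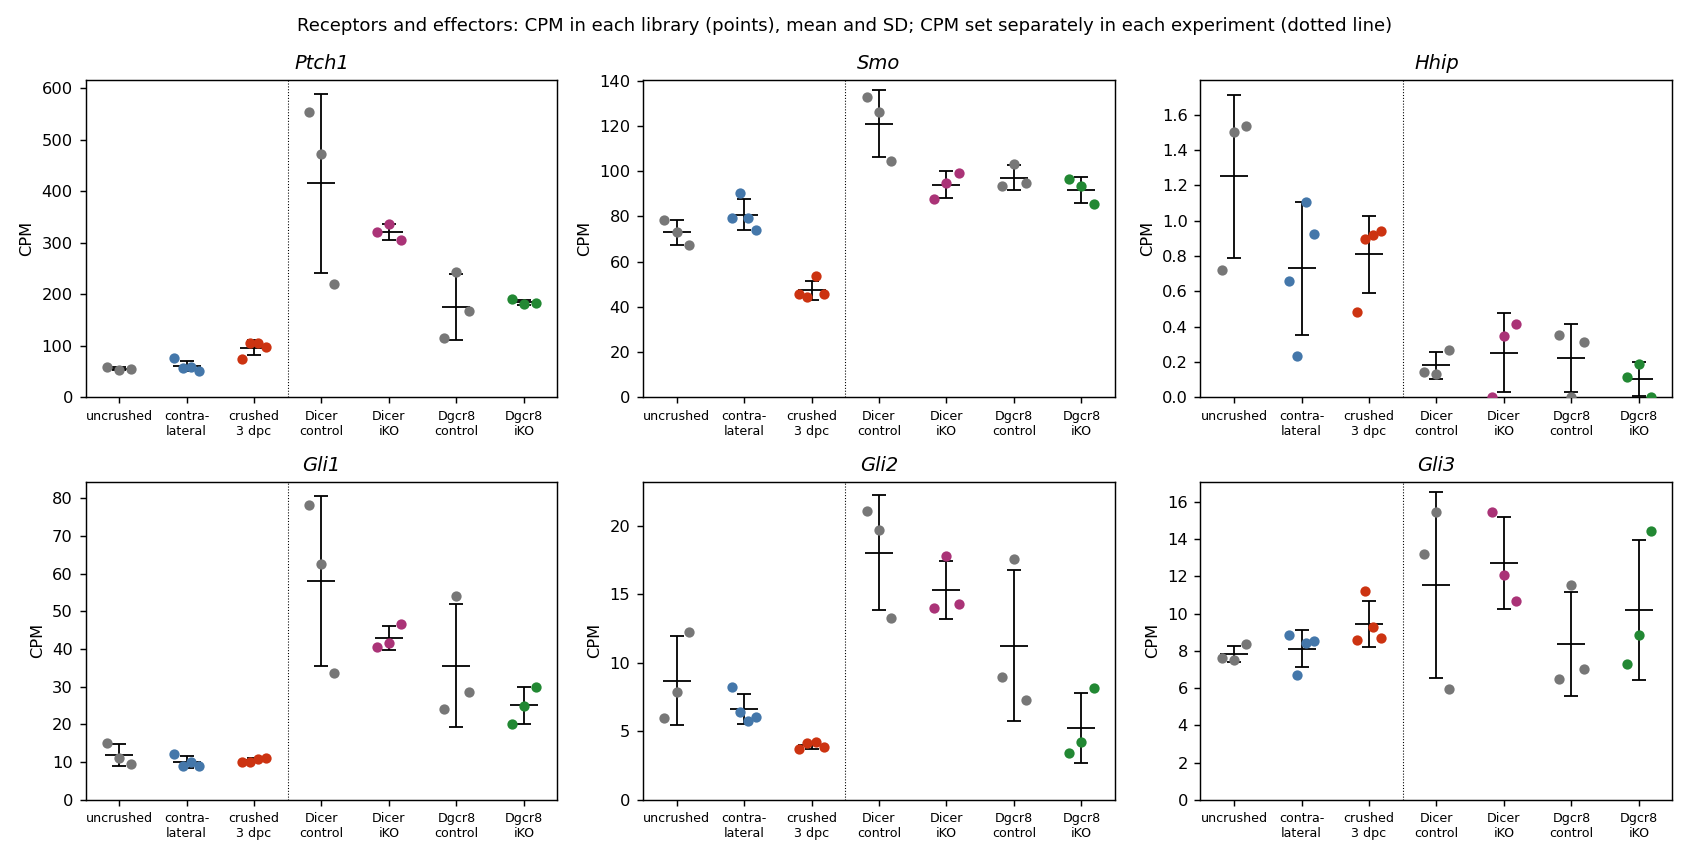
CPM of Ptch1, Smo, Hhip, Gli1, Gli2 and Gli3 in each library (points), with the mean and SD of each group. Vertical axes start at 0 and differ between genes, and the dotted line parts the experiments, whose CPM values were normalized separately. Smo and Gli2 lie lower in all crushed nerves, and Ptch1 and Gli1 spread widely among the Dicer and Dgcr8 controls.

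The transcript estimates for Ptch1 add a detail that was chosen after the values were seen and is given without a test. The transcript ENSMUST00000194663, annotated as a target of nonsense-mediated decay, starts 7725 bases upstream of the coding transcript ENSMUST00000021921, in a first exon at chr13:63573092-63573460. Its expected count was 82.3, 190, 150 and 109 in crushed nerves, 10.9, 0 and 0 in uncrushed nerves and 32.9, 16.9, 12.5 and 0 in contralateral nerves. Its share of all Ptch1 counts was 8.82 to 14.7% in crushed and 0 to 4.11% in the other nerves of this experiment, and 0 to 4.28% in the 12 nerves of the mutants and their controls. ENSMUST00000021921 took 33.3 to 47.2% and a further coding transcript, ENSMUST00000192155, took 32.2 to 43.5% of the counts in crushed nerves. RSEM divides reads among isoforms that share most exons, so these shares carry an error that the files do not give.

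**Figure D4:**
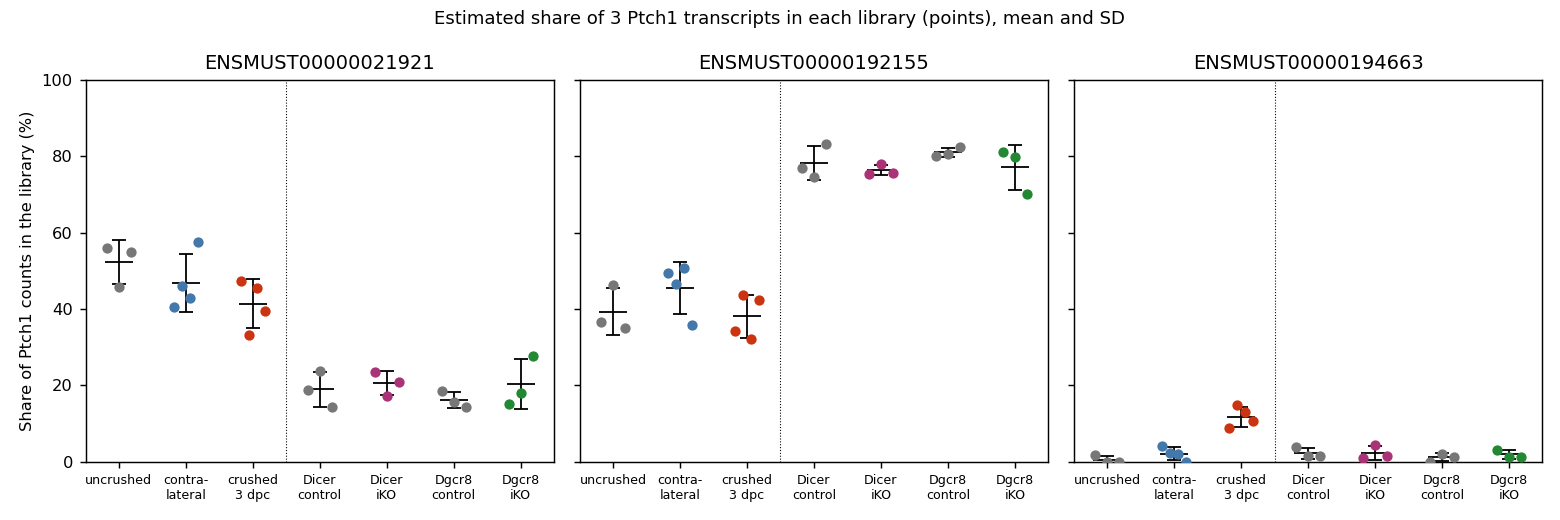
Estimated share of Ptch1 counts, in percent, given by the authors' quantification to 3 transcripts in each library (points), with the mean and SD of each group. ENSMUST00000194663 (right) lies at 8.82 to 14.7% in crushed nerves and at most 4.28% elsewhere. Experiments used different library kits and transcript lists.

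Contralateral and uncrushed nerves did not differ in a called member. Of the 8 tested, 0 were called higher or lower by edgeR or DESeq2, as were by edgeR 0% of all 17722 genes, although 3165 genes had an unadjusted p below 0.05 and DESeq2 called 10 genes higher and 197 lower. Dhh lay higher in all 4 contralateral than in the 3 uncrushed nerves (log2 fold change 0.27, unadjusted p = 0.0309, adjusted p = 0.239). Shh differed by 0.20 (95% interval -0.39 to 0.79, adjusted p = 0.748). The ratio of Shh to Dhh TPM differed by -0.49 (exact permutation test, p = 0.257, smallest possible 0.0286). This size depended on the pseudocount, at -0.73 with 1 TPM added and -0.14 with 0.01 TPM added. From expected counts the difference was -0.031, and from FPKM -0.0505.

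In the induced mutants Shh was higher than in controls without a called change of Dhh. In Dgcr8 iKO, Shh had 307, 415 and 298 counts against 28, 33 and 43 in controls, or 36.8 ± 2.47 CPM against 4.08 ± 0.674 CPM (SD, n = 3 each). The groups were far apart and narrow, and Shh was 8.99-fold higher (log2 fold change 3.17 ± 0.17, adjusted p = 7.35e-07, edgeR). In Dicer iKO, Shh had 99, 189 and 177 counts against 30, 40 and 25 in controls, or 23.4 ± 9.76 CPM against 4.32 ± 0.956 CPM. Here the mutants spread from 13.2 to 32.6 CPM, all above the controls, and Shh was 5.38-fold higher (2.43 ± 0.36, adjusted p = 0.00516). The difference between both effects was 0.75 ± 0.41 on the log2 scale (95% interval -0.06 to 1.55, adjusted p = 0.445, interaction term), so that a larger effect in Dgcr8 iKO was not shown.

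Dhh levels of Dgcr8 iKO nerves (290, 306 and 213 CPM) overlapped those of the controls (327, 305 and 300.1 CPM) (log2 fold change -0.20, 95% interval -0.51 to 0.11, adjusted p = 0.32). In Dicer iKO it was at 205, 199 and 221 CPM, within the 184, 266 and 331 CPM of the controls (-0.32, interval -0.71 to 0.07, adjusted p = 0.285). Control replicate 1 was the low one, and without it Dhh was called lower (-0.52, adjusted p = 0.0256). The summed level of 9 markers of the myelinating SC was 12102 to 22041 CPM in the same Dgcr8 iKO nerves against 33057 to 37313 CPM. In Dicer iKO the sum was 18511 to 23660 CPM against 24161 to 39195 CPM. Of the 9 genes, 6 were called lower and 1 higher in Dgcr8 iKO, beside 20.6% and 23.9% of all genes. In Dicer iKO 1 was called lower and 0 higher, beside 8.88% and 12.3% of all genes. Dhh remained the more abundant ligand in every mutant nerve. Per length, Shh was at 13.8 to 15.3 FPKM beside 103 to 145 FPKM of Dhh in Dgcr8 iKO, and at 4.95 to 12.7 FPKM beside 93.8 to 105 FPKM in Dicer iKO.

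Shh made up 10.2% ± 1.35 of the ligand FPKM in Dgcr8 iKO against 1.07% ± 0.216 in controls, and 8.37% ± 3.39 in Dicer iKO against 1.44% ± 0.544 in controls. The log2 ratio of Shh to Dhh rose by 3.36 in Dgcr8 iKO and by 2.61 in Dicer iKO with no overlap between groups. Both had an exact permutation p of 0.1, the smallest that 3 against 3 nerves allow, so that this test cannot reach 0.05. Markers of other cells moved with Shh in the mutants: the summed level of 8 macrophage markers was 321 to 370 CPM in Dgcr8 controls and 2426 to 5736 CPM in Dgcr8 iKO, and that of 7 endoneurial fibroblast markers was 3089 to 3768 CPM and 14103 to 17869.7 CPM. In Dicer controls the same lists were at 324 to 1058 CPM and 2941 to 6747 CPM, and in Dicer iKO at 3729 to 6606 CPM and 14234 to 17066 CPM. Of the 7 endoneurial fibroblast genes, 2 were called higher and 0 lower in each mutant. Among all genes 23.9% were called higher and 20.6% lower in Dgcr8 iKO, and 12.3% and 8.88% in Dicer iKO. The median log2 fold change of the 7 genes was 0.37 in Dgcr8 iKO and 0.16 in Dicer iKO, so their sum does not stand for the whole list. Markers of the immature or repair SC, 9 genes, went from 330 to 362 CPM to 696 to 783 CPM in Dgcr8 iKO and from 309 to 355 CPM to 524 to 557 CPM in Dicer iKO. The part of these shifts in the level of Shh was not tested.

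**Figure D5:**
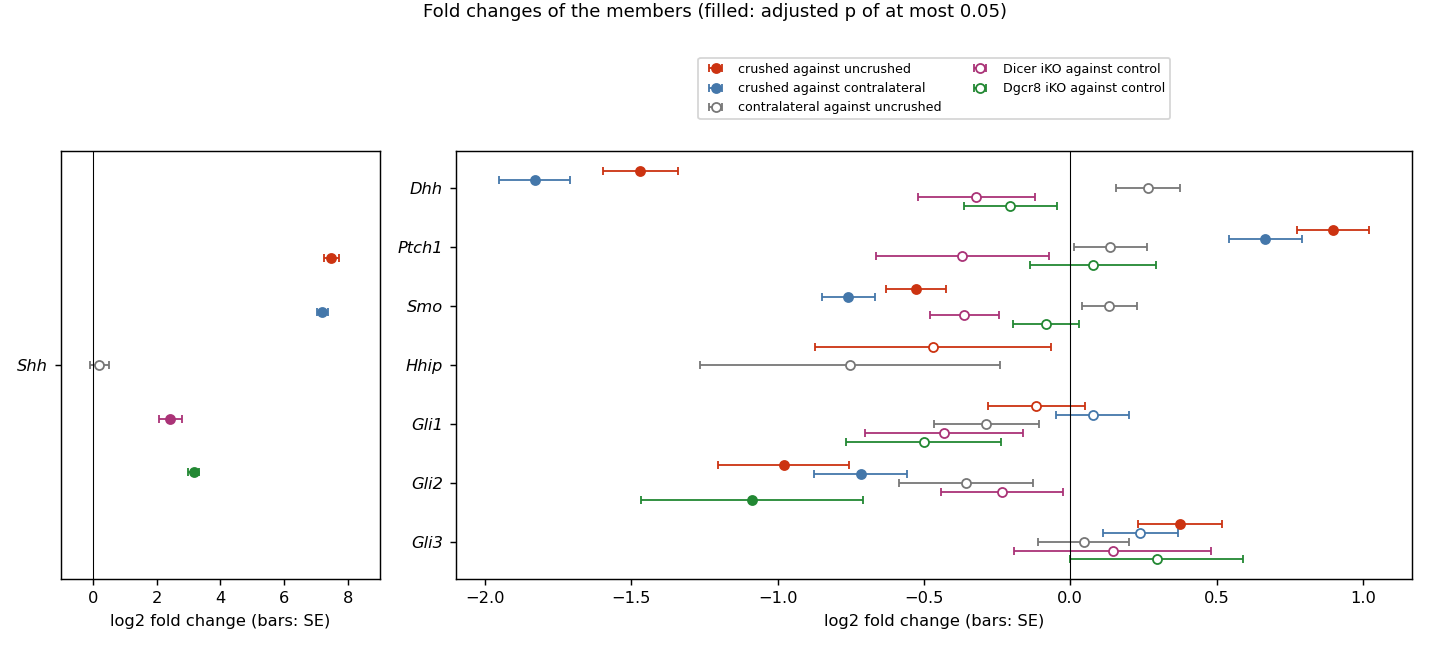
log2 fold change with its SE (bars) of Shh (left) and 7 further members (right, a different scale) in 5 comparisons. Filled points have an adjusted p of at most 0.05. Shh is filled in the 4 comparisons with injury or deletion, while Gli1 is open in all 5.

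Of the other members, few were called in the mutants. In Dicer iKO 7 members were tested and Shh was the 1 called higher, with 0 called lower, against 12.3% higher and 8.88% lower among 13045 genes, and 7.37% and 1.64% with a 2-fold change in addition. In Dgcr8 iKO 7 were tested, Shh was called higher and Gli2 lower, each by at least 2-fold, against 23.9% higher and 20.6% lower among 13252 genes, and 13.4% and 6.99% with a 2-fold change. For the difference between both mutants, 0 of 7 members were called by edgeR or DESeq2. Among all 13552 genes, edgeR called 0.00738% higher and 0.00738% lower, while DESeq2 called 170 genes higher and 65 lower. No member had an unadjusted p below 0.05 by edgeR. Ihh had 0 to 4 counts and Hhip 0 to 3 counts in each of these 12 libraries, at or around the detection limit, and neither was tested.

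Gli2 levels of Dgcr8 iKO nerves (3.42, 4.20 and 8.16 CPM) overlapped those of the controls (8.97, 17.6 and 7.25 CPM). Its log2 fold change was -1.09 ± 0.38 (adjusted p = 0.0373). The call was lost without control replicates 1 or 2 or mutant replicates 1 or 2 (adjusted p = 0.0518 to 0.195). In Dicer iKO, Gli2 was at 14.0, 17.8 and 14.3 CPM against 21.1, 19.7 and 13.2 CPM (-0.23 ± 0.21, adjusted p = 0.454).

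Ptch1 and Gli1 varied more among control nerves than between groups. Ptch1 was at 554, 472 and 220 CPM in the Dicer controls and at 321, 336 and 306 CPM in Dicer iKO, and Gli1 at 78.1, 62.5 and 33.6 CPM and at 40.6, 41.6 and 46.7 CPM. Control replicates 1 and 2 were above every mutant and replicate 3 below every mutant, for both genes. The log2 fold change was -0.37 ± 0.30 for Ptch1 (adjusted p = 0.408) and -0.43 ± 0.27 for Gli1 (adjusted p = 0.29). Without control replicate 3 both were called lower (-0.68, adjusted p = 0.00703, and -0.71, adjusted p = 0.00993), as was Smo (-0.46, adjusted p = 0.0177), so that 4 members were called in place of 1.

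Markers of the perineurium, fibroblasts and macrophages varied in the same order among these controls, and those of the myelinating SC in the reverse order. The summed level of 8 perineurial markers was 1970, 1492 and 910.5 CPM in Dicer control replicates 1, 2 and 3, and that of 6 general fibroblast markers was 14791, 10980.1 and 4561 CPM. Macrophage markers summed to 1058, 620.3 and 324 CPM and myelinating SC markers to 24161, 30724 and 39195 CPM in these nerves. In Dicer iKO perineurial markers summed to 766, 989 and 873 CPM and general fibroblast markers to 19249 to 20499 CPM. The part of any of these cells in the Ptch1 and Gli1 levels was not tested.

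In the Dgcr8 experiment, replicate 2 of the controls was the highest for Ptch1 (116, 244 and 167 CPM), Gli1 (24.0, 54.1 and 28.7 CPM) and the perineurial markers (731, 1107 and 785 CPM). Dgcr8 iKO nerves were at 190, 181 and 183 CPM of Ptch1 and 20.2, 24.9 and 29.98 CPM of Gli1. Neither was called (log2 fold change 0.08, 95% interval -0.35 to 0.50, adjusted p = 0.793 for Ptch1, and -0.50, interval -1.02 to 0.02, adjusted p = 0.149 for Gli1), and the sign for Ptch1 turned without control replicate 1 (-0.16). Smo was at 93.3, 103 and 94.9 CPM in controls and 96.5, 93.4 and 85.4 CPM in Dgcr8 iKO (-0.08 ± 0.11, adjusted p = 0.58). In Dicer iKO, Smo was at 87.7, 94.9 and 99.4 CPM, below the 133, 126 and 104 CPM of the controls, without a call (-0.36 ± 0.12, adjusted p = 0.0632). Gli3 was at 5.95 to 15.5 CPM over all 12 nerves and was not called in either mutant (0.15 and 0.29, adjusted p = 0.786 and 0.444).

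Other genes of the pathway were counted in 4 lists. Of 13 genes for ligand processing and release, 11 were tested against uncrushed nerves, and 2 were higher and 5 lower at 3 dpc. The median of the 11 was -0.47 on the log2 scale, against -0.03 for all genes. Among all genes 33.8% were called higher and 33.4% lower in that comparison, and 33.5% and 32.9% against contralateral nerves. Genes of the list that changed at least 2-fold were Disp1, which releases lipid-modified ligand from the cell (29.8 ± 2.06 CPM against 81.1 ± 4.50 CPM, log2 fold change -1.34 ± 0.09), Scube1, of the family of secreted ligand carriers (-1.08 ± 0.12), and Dlk1 (-1.68 ± 0.31), all lower, with adjusted p from 1.41e-07 to 0.000465. Dlk1, a membrane protein of the Notch ligand family, is not known for ligand release and was kept because it was on the list. The 3 genes were lower against contralateral nerves too, by -1.81, -1.42 and -1.48, where 2 of the list were higher and 5 lower. The median of the list had the other sign in that comparison, at 0.097 against -0.06 for all genes.

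Of 7 coreceptors and related receptors, 6 were tested against uncrushed nerves, 1 was higher and 3 were lower, beside 33.8% and 33.4% of all genes. Cdon, which helps ligand bind Ptch1, was at 5.03 ± 1.28 CPM in crushed and 17.8 ± 2.94 CPM in uncrushed nerves (log2 fold change -1.70 ± 0.19, adjusted p = 8.07e-06). Lrp2 was also at least 2-fold lower (-1.35, adjusted p = 0.00768) and Hhipl1, which is related to Hhip, higher (1.69, adjusted p = 0.000471). Against contralateral nerves Hhipl1 was the 1 called higher (1.39) and Cdon the 1 called lower (-1.95).

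Of 34 cytoplasmic and ciliary transducers, 8 were higher and 11 lower against uncrushed nerves, and 8 and 15 against contralateral nerves. All genes were higher and lower at 33.8% and 33.4% in the first and 33.5% and 32.9% in the second comparison. Evc2 and Evc, which form a complex with Smo at the base of the cilium, were at 34.1 ± 1.48 CPM against 130 ± 11.6 CPM (log2 fold change -1.84 ± 0.10, adjusted p = 1.03e-08) and 17.5 ± 2.09 CPM against 41.6 ± 2.43 CPM (-1.15 ± 0.11, adjusted p = 2.09e-06) in crushed and uncrushed nerves. Kif3a, a motor subunit needed to build cilia, was lower as well (-1.19, adjusted p = 9.49e-07). Csnk1e (1.08) and Arrb2 (1.04) were higher by at least 2-fold against uncrushed nerves, and Kctd11 (-1.16) and Ulk3 (-1.06) were lower by at least 2-fold against contralateral nerves.

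Among genes described as Gli targets in other tissues, more were called higher than lower at 3 dpc. Of 19, 17 were tested against uncrushed nerves, 10 were higher and 1 lower, beside 33.8% and 33.4% of all genes, with a median of 1.07 on the log2 scale against -0.03 for all genes. The largest rises were in genes of the cell cycle, namely Ccne1 (3.07 ± 0.26), Foxm1 (2.71 ± 0.14) and Ccnd1 (345 ± 39.6 CPM against 57.5 ± 4.54 CPM, 2.69 ± 0.12), and in the secreted Wnt antagonist Sfrp1 (1.83 ± 0.23), all with adjusted p from 1.94e-09 to 1.99e-05. Mycn, named as a target together with them, was at 0.485 ± 0.150 CPM in crushed and 3.34 ± 1.39 CPM in uncrushed nerves. It was called lower (log2 fold change -2.64, adjusted p = 7.55e-05, edgeR), but its crushed level lay close to the detection limit, so the size of its change is uncertain. Against contralateral nerves 11 of 16 were higher and 2 lower, beside 33.5% and 32.9% of all genes, with Ccne1 at 3.35 and Mycn at -3.42. The macrophage markers, at 156 to 179.8 CPM in uncrushed and 718 to 1649 CPM in crushed nerves, moved with this list, and their part was not tested.

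Between contralateral and uncrushed nerves, 0 genes of the 4 lists were called by edgeR, and 5 of 12, 1 of 6, 3 of 34 and 4 of 16 had an unadjusted p below 0.05 in the order of the lists above. In Dgcr8 iKO 9 of 17 Gli target genes tested were higher and 1 lower, beside 23.9% and 20.6% of all genes, and the median was 0.996 on the log2 scale against -0.01 for all genes. Ccnd1, at 622 ± 43.6 CPM against 83.3 ± 36.7 CPM, had a log2 fold change of 2.90 ± 0.27 (adjusted p = 1.63e-05), Sfrp1, at 34.8 ± 6.10 against 3.54 ± 0.352 CPM, changed by 3.28 ± 0.19, and Cdk6, at 85.3 ± 15.6 against 21.4 ± 1.26 CPM, by 1.99 ± 0.15. Ccne1 (2.28) and Foxm1 (2.28) were higher as well. In Dicer iKO 4 of 17 were higher and 0 lower, beside 12.3% and 8.88% of all genes, with a median of 0.13, among them Ccnd1 (428 ± 88.3 against 116 ± 4.59 CPM, 1.88 ± 0.16), Foxm1 (1.69) and Cdk6 (1.27). The difference of both effects was called by edgeR for 0 of 17, of which 5 had an unadjusted p below 0.05.

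Among 34 transducers, 2 were higher and 11 lower in Dgcr8 iKO, where 23.9% and 20.6% of all genes were, and 1 and 3 in Dicer iKO, where 12.3% and 8.88% of all genes were. Evc2 had 72.5 ± 13.5 CPM in Dgcr8 iKO nerves against 239 ± 7.33 CPM, a log2 fold change of -1.72 ± 0.15 (adjusted p = 1.11e-05). Of the genes for ligand processing and release, 3 of 10 tested were higher and 2 lower in Dgcr8 iKO, and 1 of 9 was higher in Dicer iKO. Those past 2-fold in Dgcr8 iKO were Scube3, at 4.90 ± 1.66 CPM against 0.481 ± 0.316 CPM in controls (log2 fold change 3.33, adjusted p = 0.000269), and Dlk1, at 0.110 ± 0.0127 CPM against 2.78 ± 1.03 CPM (adjusted p = 0.000153). The mutant level of Dlk1 lay below the detection limit, so no fold is given for it. Of 5 coreceptors tested, 0 were called by edgeR in Dgcr8 iKO, where 2 had an unadjusted p below 0.05, and 1 was lower in Dicer iKO.

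The genes most like Shh and Dhh were taken by Pearson's r of log2(CPM + 1) over the libraries of an experiment, as a description of likeness over libraries that fall into separate groups. Over the 11 crush libraries, among 16943 genes, Lgals3 (r = 0.999), Cd44 (0.999), Btc (0.999), Gpc1 (0.999) and Hmga1 (0.998) were the most like Shh. Btc, a growth factor, is 1 of the repair SC markers listed here. The most like Dhh were Pcx (0.999), Pdk2 (0.997), Nod1 (0.996), Aacs (0.996) and Fscn1 (0.996). Shh and Dhh had r = -0.968 with each other.

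Over the 12 libraries of the mutants and controls, among 13376 genes, Wif1 (r = 0.993), Cenpf (0.986), Panx1 (0.985), Galnt6 (0.984) and Prc1 (0.982) were the most like Shh. Wif1, a secreted Wnt inhibitor, is 1 of the endoneurial fibroblast markers listed here, and Cenpf and Prc1 act in cell division. The most like Dhh were the myelin gene Mag (0.978), the SC transcription factor Sox10 (0.958), Plekha7 (0.943), Arrdc3 (0.939) and Aacs (0.937), so that Aacs stood among the 5 genes in both experiments. Between Shh and Dhh r was -0.344. Ptch1 had r = -0.0722 with Shh and -0.672 with Dhh, and Gli1 had -0.368 and -0.535.

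Annotated neighbours bear on some of these counts. The antisense genes 9530036O11Rik and Gm26894 share 446 and 361 exonic bases with Shh and had 46.7 to 75.7 and 98 to 192 counts in crushed nerves, and 8.80 to 13.8 and 3 to 7 counts in contralateral nerves. The kits keep strand by their labels, but the strand setting of the counting is not given in the sources used here, so reads of Shh and its antisense partners cannot be told apart with certainty. In crushed nerves their counts were small beside the 3249 to 5818 of Shh. In uncrushed nerves they had 7.16 to 11 and 9 to 12 counts, beside 11 to 29 of Shh, and contralateral nerves had 22 to 30 of Shh. In uninjured nerves the antisense counts were thus not small beside those of Shh. Their part in the low Shh counts of these nerves, and so in the fold changes of Shh after crush, was not tested. Rhebl1 shares 546 exonic bases with Dhh on the same strand and had 11 to 22 counts in crushed and 14 to 22 in contralateral nerves. Arhgap9, on the opposite strand, shares 62 exonic bases with Gli1. It had 60 to 74 counts in crushed nerves against 4 to 16 in uninjured nerves, beside 117 to 126 counts of Gli1 in crushed nerves. In Dgcr8 iKO it had 94 to 155 counts against 19 to 36 in controls, beside 171 to 261 counts of Gli1 in these mutants. In Dicer iKO it had 80 to 150 counts against 25 to 63 in controls, beside 241 to 337 of Gli1. The part of Arhgap9 in the Gli1 counts was not tested in either experiment.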

How the data were processed

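The members and gene lists were chosen with earlier results of these data known. The authors trimmed reads with Trimmomatic, aligned them to GRCm38 (Ensembl) with STAR and estimated transcript abundance with RSEM. The deposited expected counts of a gene's transcripts were added up and rounded. The deposited TPM and FPKM values, scaled by the authors to transcript length and library size, were summed per gene. TPM was used for the ratio of Shh to Dhh and FPKM for levels of different genes. Very short RNAs take much of the TPM scale in the crush libraries, where summed FPKM over transcripts was 4959960 to 12598500. By their labels the crush libraries were made with a SMARTer pico kit and the others with TruSeq, whereas the methods name TruSeq alone. The mutants' libraries list fewer genes. Symbols were matched for 42365 of 43068 and 22570 of 22880 gene identifiers. 1 uncrushed library is replicate 3 by title and 4 by description, and the title was used.

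Each comparison used its groups only, genes kept by filterByExpr (minimum count 10), TMM, and edgeR 4.0.16's quasi-likelihood test (R 4.3.3) with Benjamini-Hochberg adjustment over all genes tested, called at 0.05. The SE is the log2 fold change over the square root of the F statistic, and 95% intervals are normal intervals from it. Effects of both mutants were compared by an interaction term over 12 libraries. The log2 ratio of Shh to Dhh used a pseudocount of 0.1 TPM and a two-sided exact permutation test. CPM used TMM over all libraries of an experiment. All members were named. Other pathway genes were named when called and changed at least 2-fold, up to 5 per list and comparison, with the 5 genes of highest Pearson's r to Shh and to Dhh (mean CPM of at least 1). Scripts were tested on simulated data. Over 27 pairs of replicates, chi-square per degree of freedom was 4.36 to 42.4, so none was a copy of another. Nerves of a group are treated as separate mice. By the study's methods the contralateral nerve was harvested from the mice with a crush, and which libraries share a mouse is not stated. The tests between crushed and contralateral nerves do not take shared mice into account outside the replicate block.

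Alternatives were RLE normalization, no filter on low counts, a replicate block, DESeq2 1.42.0, all groups in 1 fit, genes listed in both experiments, limma 3.58.1 on log2(TPM + 0.1), other pseudocounts, counts in place of TPM, and leaving out each replicate. A ratio from FPKM was added after seeing the data. Same-numbered libraries did not deviate together in any comparison (r from -0.174 to 0.177), and the numbers were not taken to pair samples. A marker gene of SCs is not reported here and was left out of the summed levels.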

Additional observations from a re-analysis of the deposited data

Results flagged for a closer look

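Within the groups of 4 nerves, 20 sets of values (9 members and the ratio of Shh to Dhh, in crushed and in contralateral nerves) were searched for a library that stood apart by Dixon's criterion, which chance meets in about 1 of 20 sets. Smo in crushed replicate 3 was at 53.5 CPM, above the 44.6 to 45.7 CPM of the other crushed nerves and still below all uninjured nerves. Hhip in crushed replicate 1 was at 0.481 CPM, below the 0.896 to 0.943 CPM of the others, and rests on 6 counts against 10 to 11.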

How the results depend on the processing

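The call of Shh held under each alternative run in the 4 comparisons with injury or deletion. The count of called members against uncrushed nerves was 6, but 3 (3 higher, 0 lower) with limma on log2(TPM + 0.1), a scale that moved the median of all genes by 0.77 in that comparison, by 0.25 against contralateral nerves and by 0.59 between both uninjured groups. Limma called 8277 of all 17433 genes higher and 906 lower against uncrushed nerves, and 3289 and 1461 of 13252 in Dgcr8 iKO, on this scale. On it Smo (0.29), Hhip (0.13) and Gli1 (0.60) turned against uncrushed nerves, as did Gli1 (0.32) and Gli2 (0.17) between uninjured groups, Gli3 (-0.041) in Dicer iKO and Smo (0.072) in Dgcr8 iKO, 1 member rather than 2 was called in Dgcr8 iKO, and Smo lost its call against contralateral nerves (-0.48, adjusted p = 0.0603). Without a filter on low counts the median moved by 0.23 against uncrushed nerves, Gli1 (0.11) turned, and Gli3 was called against contralateral nerves (0.41, adjusted p = 0.0282). All groups in 1 fit gave 2 called members in Dicer iKO in place of 1, with Smo lower (-0.36, adjusted p = 0.0279). With the replicate block Shh was the 1 called member in Dgcr8 iKO, Gli2 lost its call there (adjusted p = 0.0574), and Gli3 lost its call against uncrushed nerves (adjusted p = 0.0741). With this pairing the difference in the ratio was 7.71 (exact sign-flip test, p = 0.25) and 8.19 (p = 0.125) for crushed against uncrushed and contralateral nerves, the smallest p that 3 or 4 pairs allow. Contralateral nerves were harvested from mice with a crush, but the replicate numbers of both groups are not stated to match.

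Leaving out each replicate, the called members ranged from 5 to 6 and 5 to 5 for crushed against uncrushed and contralateral nerves, 0 to 0 between uninjured groups, 1 to 4 in Dicer iKO, 1 to 2 in Dgcr8 iKO and 0 to 0 for the difference between mutants. The difference in the ratio ranged from 7.39 to 7.94 against uncrushed nerves (exact permutation test, p = 0.0667 or 0.1, the smallest those designs allow), 8.05 to 8.29, -0.80 to -0.24, 2.26 to 2.96 and 3.18 to 3.45 in the order of the 5 comparisons. Signs turned for uncalled members: Gli1 against uncrushed nerves (-0.23 to 0.16); between uninjured groups, Shh (-0.031 to 0.42) and Gli3 (-0.0066 to 0.14); Gli3 in Dicer iKO (-0.17 to 0.41); Ptch1 (-0.16 to 0.38) and Gli3 (-0.031 to 0.58) in Dgcr8 iKO; and for the difference between mutants Gli1 (-0.34 to 0.36), Gli3 (-0.17 to 0.47) and Dhh (-0.090 to 0.32). Causes were not tested. At this depth Ihh and Hhip could not be compared.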
